A study of Mus musculus with 4 samples.

Results

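Aminoacyl-tRNA synthetases are the enzymes that join each amino acid to its transfer RNA, and their genes are described here in mouse blastocysts. The embryos were obtained either through in vitro fertilization (IVF) or through somatic cell nuclear transfer (SCNT), where an oocyte is given the nucleus of a body cell. The 36 genes were chosen by symbol from a fixed list, out of 23235 symbols in the files. The list was written with earlier results of these data known. All 36 were found: 20 that make the cytosolic enzymes and 16 that make the mitochondrial enzymes, whose symbols end in 2. Each group had 2 libraries, each from 6 pooled early blastocysts lysed 96 hours after fertilization or activation. IVF embryos came from oocytes of Xist knockout females of the 129S1/Svj background and wild-type CAST/EiJ sperm. SCNT embryos received nuclei of embryonic fibroblasts that were heterozygous for the Xist knockout, from 129S1/SvImj mothers and CAST/EiJ fathers. Both groups are labelled with the strain 129S1/Svj x CAST/EiJ and both carry the Xist knockout on an allele, but the recipient oocytes of SCNT came from B6D2F1/J females. The oocyte strain and the way the embryo was made therefore cannot be told apart. The SCNT columns are headed with the name Kdm4d, that of a histone demethylase, which the labels leave out, so a treatment with it cannot be told apart from nuclear transfer.

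Cells keep separate sets of these enzymes for the cytosol and for the mitochondrion, nearly all encoded in the nucleus by separate genes. Kars and Gars are exceptions, since each makes both forms, and Qars has no mitochondrial counterpart because mitochondria make glutaminyl-tRNA by amidating a glutamate-loaded precursor. Several cytosolic enzymes sit together in the multi-synthetase complex, held by the scaffold proteins Aimp1, Aimp2 and Eef1e1. When amino acids are short or protein folding fails, the transcription factor ATF4 raises amino acid synthesis and transport genes, and many of the cytosolic synthetase genes are among its known targets. Early embryos rely on protein synthesis from their own transcripts once maternal RNA has been cleared.

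Values are taken to be FPKM, fragments per kilobase of transcript scaled to the mapped total, so levels of different genes can be compared per length. FPKM summed to between 933167 and 985197 per library, and the depth in reads is unknown. Genes with a mean of at least 1 FPKM over the 4 libraries were tested, 11039 in all, and all 36 synthetase genes were among them. Differences are SCNT minus IVF on the log2(FPKM + 1) scale with the standard error (SE) of limma, which understates changes of low genes. All 22 markers of the blastocyst lineages (trophectoderm, epiblast with inner cell mass, primitive endoderm) were detected in every library, among them Krt8, Pou5f1 and Gata6. Of the 8 trophectoderm markers 7 had estimates above 0, against 52.2% of all tested genes, with a median difference of 0.28. With SCNT higher, 3 of the 8 had an unadjusted limma p under 0.05, against 4.25% of all tested genes. Both SCNT libraries were above both IVF libraries in 3 of the 8, against 18.3% of all tested genes. The summed levels of the 8 markers were 4402 and 3606 FPKM in IVF against 6013 and 3939.5 in SCNT. These sums were highest in SCNT library 1 and overlapped between the groups. The part of these markers in the synthetase values was not tested. Of 10 fibroblast markers, summed levels were 3.49 and 1.65 FPKM in IVF libraries 1 and 2 and 6.34 and 1.18 FPKM in SCNT libraries 1 and 2, with Twist2 at 0 throughout. Of 8 cumulus and granulosa markers, the sums were 7.78 and 5.29 FPKM in IVF and 8.96 and 11.9 FPKM in SCNT, nearly all from Amhr2, with Cyp19a1 and Ptx3 at 0 throughout. MicroRNA and small nucleolar RNA genes held 12.4% and 12.2% of summed FPKM in IVF and 9.51% and 9.73% in SCNT, and this share moved with the group beside every result that follows. In pooled embryos, fewer cells of a type and less RNA per cell cannot be told apart, and p-values measure the spread between these libraries only, which may be technical.

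The cytosolic synthetase genes were abundant and mostly higher in SCNT, without any of them passing the test over all genes. Mean levels over the 4 libraries had a median of 67.1 FPKM, against 10.4 FPKM for all tested genes. The estimate was above 0 for 18 of the 20 genes, where 52.2% of all tested genes had an estimate above 0. The median difference was 0.26, against 0.01 for all tested genes. In 5 of 20 genes, Cars, Mars, Nars, Sars and Wars, both SCNT libraries were above both IVF libraries, and in none were both below. Over all tested genes 18.3% were separated with SCNT higher and 15.1% with SCNT lower, so the share of 25.0% in the cytosolic set is above that background by few genes. No member passed at a limma adjusted p under 0.05, a threshold passed by 0.127% of tested genes.

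**Figure D1:**
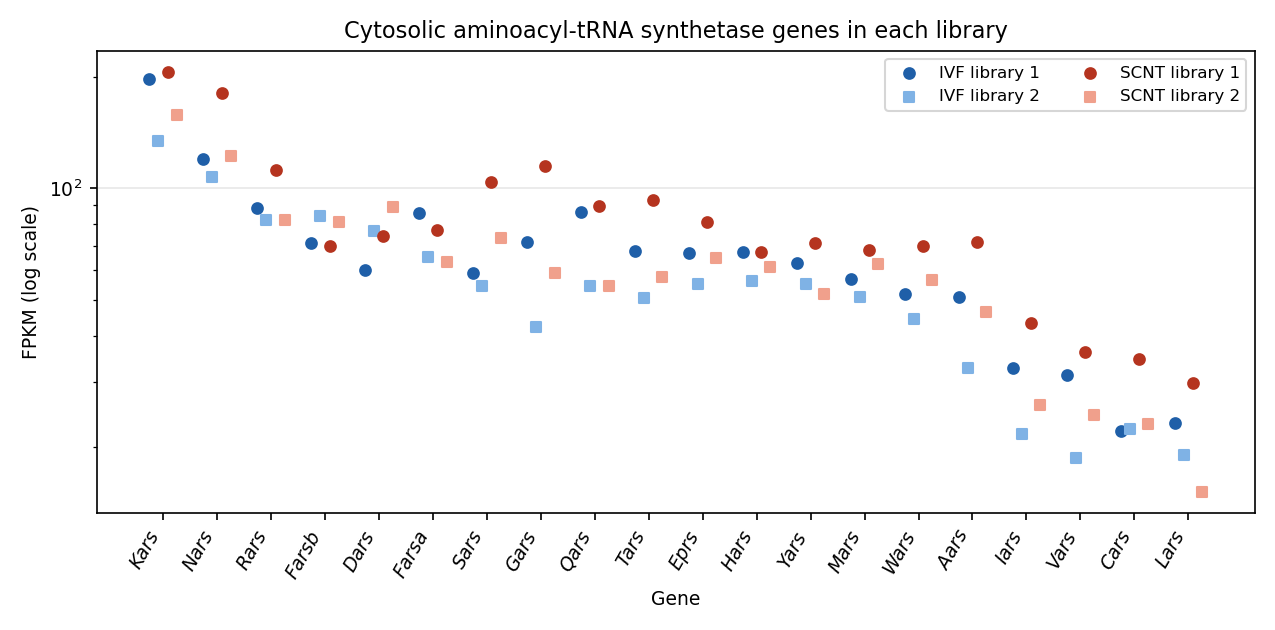
FPKM (log axis) of the 20 cytosolic synthetase genes, ordered by mean level, with a point for each library (blue for IVF, red for SCNT; circles for libraries numbered 1, squares for libraries numbered 2). Kars is the highest and Lars the lowest, and circles lie above squares of the same colour for most genes.

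Libraries of a group differed as much as the groups did. In 17 of the 20 cytosolic genes library 1 was above library 2 in both groups, a pattern shown by 39.6% of all tested genes. The exceptions were Dars and Farsb, with library 2 higher in both groups, and Cars, with IVF libraries nearly equal. The median excess of library 1 was 0.26 in IVF and 0.47 in SCNT on the log2 scale, so the highest values of most genes were in SCNT library 1 and the lowest in IVF library 2. Nothing says that the library numbers pair the samples, so the differences below within a number compare libraries that share a label only. Within library number 1 the cytosolic genes had a median difference of 0.32, with 17 of 20 higher in SCNT. Within number 2 the median was 0.20, with 15 of 20 higher. In 14 of 20 genes SCNT was higher within both numbers, against 33.8% of all tested genes, and in 2 of 20, Farsa and Farsb, it was lower within both, against 30.1%. The median difference over the cytosolic genes depended on which library was used: it was 0.03 without SCNT library 1 and 0.45 without SCNT library 2, and 0.37 and 0.11 without IVF libraries 1 and 2. With FPKM rescaled to the total without microRNA and small nucleolar RNA genes, 15 of 20 estimates were above 0, and Mars, Sars and Wars alone of the cytosolic genes stayed separated, where 14.3% of all tested genes were separated with SCNT higher.

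Seryl-tRNA synthetase, Sars, on chromosome 3, had the largest difference of the cytosolic genes. Its IVF libraries held 59.0 and 54.3 FPKM against 104 and 73.6 in SCNT, a ratio of means of 1.57. The SCNT libraries were both above the IVF libraries, and the gap between them was far wider than the gap within IVF. The log2 difference was 0.62 ± 0.23 (SE, 2 libraries per group; 95% interval 0.03 to 1.21), with an unadjusted limma p of 0.0423 and an adjusted p of 0.663. With all 4 libraries and group as the only term, it was the only one of the 36 genes with an unadjusted p under 0.05, where 4.25% of all tested genes had such a p with SCNT higher and 2.84% with SCNT lower. The unadjusted limma p of Sars was 0.0640 with FPKM rescaled without microRNA and small nucleolar RNA genes. It was 0.0395 to 0.0457 with equal medians and with the other pseudocounts and filters. With the library number as a block it was 0.00863, with an adjusted p of 0.16. In that fit 10 of the 36 genes had an unadjusted p under 0.05 with SCNT higher, against 9.58% of all tested genes. The difference of Sars was 0.68 and 0.56 without IVF libraries 1 and 2, and 0.37 and 0.87 without SCNT libraries 1 and 2.

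Glycyl-tRNA synthetase, Gars, which serves the cytosol and mitochondria, followed with 71.8 and 42.2 FPKM in IVF and 114.7 and 59.2 FPKM in SCNT. The ratio of means was 1.52, but SCNT library 2 lay below IVF library 1, so the groups overlapped (difference 0.57 ± 0.41, limma adjusted p = 0.939). Alanyl-tRNA synthetase, Aars, showed the same order of libraries, with 51.0 and 32.7 FPKM in IVF and 71.5 and 46.4 FPKM in SCNT. For Aars the SCNT library was higher by 0.48 within number 1 and by 0.49 within number 2. For Gars these differences were 0.67 and 0.48, and for Sars 0.81 and 0.43.

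Asparaginyl-tRNA synthetase, Nars, was at 120.3 and 107 FPKM in IVF against 181 and 122 in SCNT, with both SCNT values higher. Tryptophanyl-tRNA synthetase, Wars, was at 51.7 and 44.3 FPKM in IVF against 69.7 and 56.5 in SCNT, also without overlap. Its difference was 0.38 ± 0.20 (95% interval -0.13 to 0.90, limma adjusted p = 0.860). Cysteinyl-tRNA synthetase, Cars, was at 22.1 and 22.4 FPKM in IVF against 34.5 and 23.2 in SCNT. Its groups were separated by a narrow margin, and nearly all of the difference came from SCNT library 1. Threonyl-tRNA synthetase, Tars, was at 67.7 and 50.7 FPKM in IVF against 93.1 and 57.6 in SCNT, with overlap.

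The 8 enzymes of the multi-synthetase complex had estimates above 0 throughout, with a median of 0.21, and 1 of the 8 was separated with SCNT higher, a share no larger than the 18.3% of all tested genes. The 12 cytosolic genes outside the complex had a median of 0.33 with 4 separated, and the difference between these sets was not tested. Methionyl-tRNA synthetase, Mars, was the separated one of the complex, at 56.9 and 51.0 FPKM in IVF against 68.1 and 62.5 in SCNT (difference 0.27 ± 0.18, 95% interval -0.18 to 0.72, limma adjusted p = 0.904). Exons of Mars overlap those of the stress gene Ddit3, given below, on the opposite strand. The part of Ddit3 reads in the separation of Mars was not tested. The joint glutamyl- and prolyl-tRNA synthetase, Eprs, was at 66.7 and 55.3 FPKM in IVF against 81.3 and 64.7 in SCNT, and isoleucyl-tRNA synthetase, Iars, at 32.7 and 21.7 FPKM in IVF against 43.2 and 26 in SCNT. In both the lower SCNT library lay inside the IVF range. Aspartyl-tRNA synthetase, Dars, had its higher value in library 2 of each group, with 60.3 and 76.7 FPKM in IVF and 74.4 and 89.0 FPKM in SCNT.

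Lysyl-tRNA synthetase, Kars, the most abundant cytosolic member, was at 198 and 135 FPKM in IVF against 206 and 157 in SCNT. Arginyl-tRNA synthetase, Rars, was at 88.7 and 81.9 FPKM in IVF against 112 and 82.2 in SCNT, where SCNT library 1 alone stood apart. Glutaminyl-tRNA synthetase, Qars, gave nearly the same pair of values in each group, 86.1 and 54.5 FPKM in IVF and 89.5 and 54.5 FPKM in SCNT. Its difference of 0.03 had a 95% interval from -0.85 to 0.90, which the gap between library numbers widens. Leucyl-tRNA synthetase, Lars, the least abundant cytosolic member, was at 23.2 and 19.1 FPKM in IVF against 29.8 and 15.1 in SCNT, so the SCNT values enclosed the IVF values.

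Among the remaining cytosolic genes, valyl-tRNA synthetase, Vars, was at 31.3 and 18.7 FPKM in IVF against 36.05 and 24.4 in SCNT. Histidyl-tRNA synthetase, Hars, varied little, with 67.5 and 56.3 FPKM in IVF and 67.4 and 61.3 FPKM in SCNT. Tyrosyl-tRNA synthetase, Yars, was at 62.9 and 55.3 FPKM in IVF against 71.0 and 51.9 in SCNT, again with SCNT values on both sides of IVF. Farsa and Farsb encode the alpha and beta subunits of phenylalanyl-tRNA synthetase and were the only cytosolic genes with estimates below 0. Farsa was at 85.8 and 65.2 FPKM in IVF against 77.3 and 63.4 in SCNT (difference -0.09 ± 0.22). Farsb was at 71.1 and 84.3 FPKM in IVF against 69.7 and 81.1 in SCNT (difference -0.04 ± 0.20). The ratio of Farsa to Farsb was 1.21 and 1.11 in IVF and SCNT library 1 and 0.773 and 0.782 in IVF and SCNT library 2, so the balance of the subunit transcripts followed the library number and not the group.

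**Figure D2:**
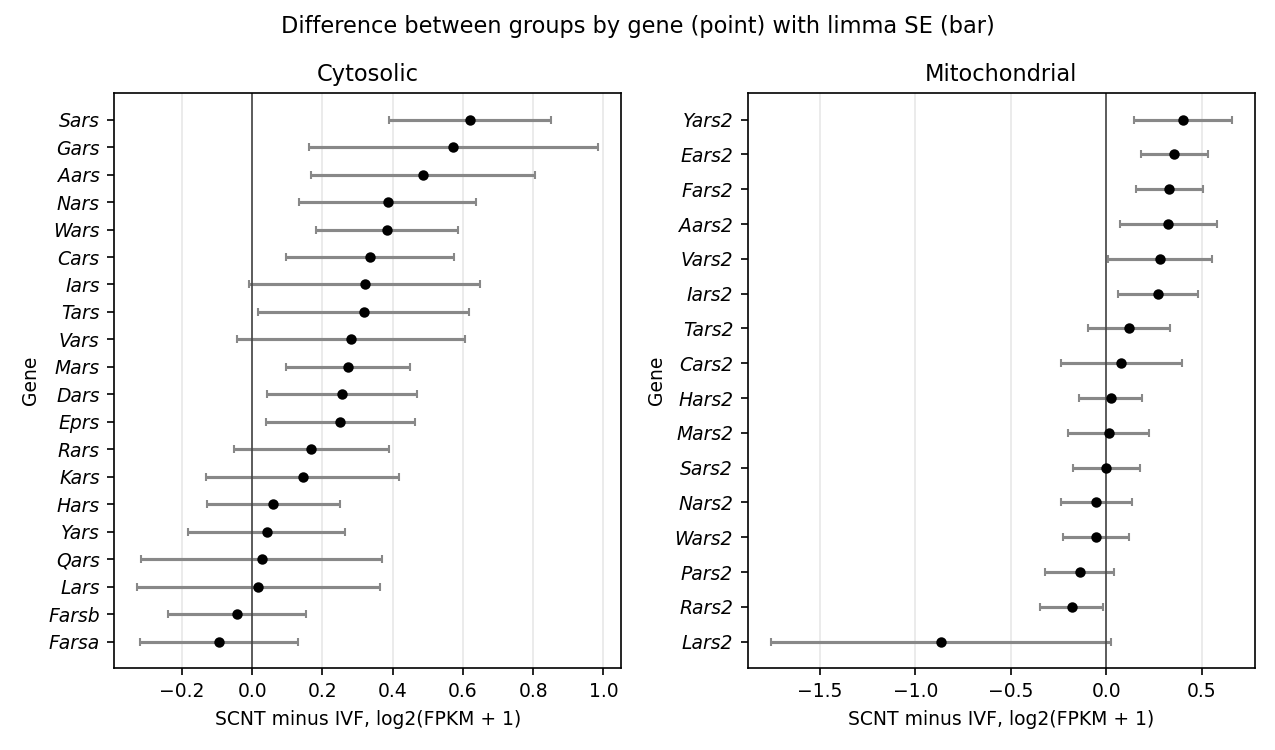
Difference between the group means of log2(FPKM + 1), SCNT minus IVF, for the 20 cytosolic genes (left) and the 16 mitochondrial genes (right, on a wider axis), with bars of 1 limma SE. Cytosolic points lie to the right of 0 except Farsa and Farsb, and Lars2 has the longest bar.

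The 12 cytosolic genes commonly listed as induced by ATF4 (Aars, Cars, Eprs, Gars, Iars, Lars, Mars, Nars, Sars, Tars, Wars and Yars) were set beside the other 8, with a list drawn from general knowledge. All 12 had estimates above 0, with a median difference of 0.33, and 5 of the 12 were separated with SCNT higher. Among the other 8, 6 had estimates above 0, the median was 0.10 and 0 were separated, where 52.2% of all tested genes had estimates above 0 and 18.3% were separated with SCNT higher. Summed levels of the 12 were 686 and 556 FPKM in IVF and 962 and 659 FPKM in SCNT, with SCNT library 1 highest and overlap between the groups. Summed levels of the other 8 were 688 and 572 FPKM in IVF and 733 and 613 FPKM in SCNT. The difference between these sets was not tested, since the lists were written with results of these data known.

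Genes that ATF4 drives for amino acid supply and stress were mostly higher in SCNT by estimate, and more so within library number 1. Of 23 listed, 19 were tested, and 18 of the 19 had estimates above 0, against 52.2% of all tested genes, with a median of 0.44. Within library number 1 their median difference was 0.89, with 18 of 19 higher in SCNT, and within number 2 it was 0.18, with 13 of 19 higher, where the cytosolic synthetase genes had 0.32 and 0.20. None passed over all genes with limma, while 6 of the 19 had an unadjusted p under 0.05 with SCNT higher, and 11 of the 19 were separated with SCNT higher, against 4.25% and 18.3% of all tested genes. Ddit3, the stress transcription factor CHOP, was at 22.0 and 38.2 FPKM in IVF against 74.2 and 107.6 in SCNT, a ratio of 3.02 (difference 1.59 ± 0.34, limma adjusted p = 0.372). Trib3, a pseudokinase that feeds back on ATF4, was at 3.70 and 4.37 FPKM in IVF against 16.4 and 8.52 in SCNT (1.36 ± 0.32, adjusted p = 0.439). Aldh18a1, which starts proline synthesis, was at 6.70 and 4.91 FPKM in IVF against 19.9 and 12.4 in SCNT (1.31 ± 0.29, limma adjusted p = 0.382).

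Nupr1, a stress-induced chromatin protein gene, was at 1.06 and 3.004 FPKM in IVF against 109.9 and 10.3 in SCNT, with SCNT library 1 far above all others (3.62 ± 1.09, limma adjusted p = 0.532). Slc7a1, a transporter of cationic amino acids, was at 1.01 and 1.52 FPKM in IVF against 2.83 and 2.17 in SCNT. Mthfd2, a mitochondrial folate enzyme named outside the rule as the sixth gene with such a p, was at 17.3 and 12.2 FPKM in IVF against 49.0 and 22.2 in SCNT. Chac1, which breaks down glutathione and is named after its values were seen, stood apart in SCNT library 1 alone, at 6.23 FPKM against 0.888 to 1.27 FPKM in the other libraries. Not every gene of the list was higher: Asns, asparagine synthetase and a classic ATF4 target, was at 88.4 and 76.5 FPKM in IVF against 104 and 65.5 in SCNT, enclosing the IVF values. Atf4 itself was at 104 and 116 FPKM in IVF against 132 and 133 in SCNT, separated but not past the test (0.28 ± 0.18, limma adjusted p = 0.903).

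**Figure D3:**
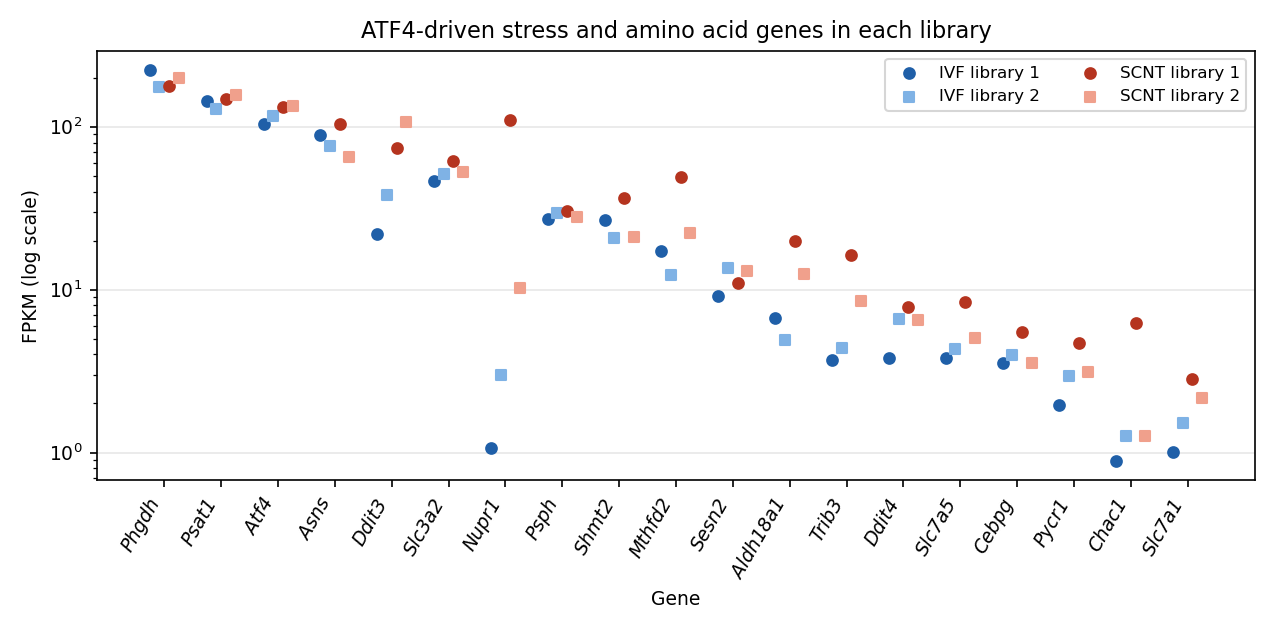
FPKM (log axis) of the 19 tested ATF4-driven genes, ordered by mean level, with a point for each library (blue for IVF, red for SCNT; circles for libraries numbered 1, squares for libraries numbered 2). Both red points lie above both blue points for Ddit3, Trib3, Aldh18a1 and Nupr1, but not for Phgdh or Asns.

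ATF4 binds DNA with a C/EBP partner at the C/EBP-ATF response element, so the promoters were searched for its core, TGATGNAA, on both strands. RefSeq promoters of the GRCm38.p6 build, 250 bases before to 50 after each start site, were matched for 13 of the 20 cytosolic and 14 of the 16 mitochondrial genes. The core was present in 5 of the 13 cytosolic genes and in 0 of the 14 mitochondrial genes. It was present in 3.97% of all 32851 promoters, which belong to 27025 genes, a share counted per promoter and not per gene. At so low a share, 0 of 14 does not set the mitochondrial genes apart. All 5 genes with the core belong to the ATF4 list, of which 8 had a promoter. The list and the core are both tied to ATF4 and were chosen with earlier results of these data known. Their overlap is therefore not a test. The matches are shown to mark where the letters of the core lie in these 5 genes, with capitals for the matched 8 bases. Each line reads along the gene's own strand, and TTNCATCA is the core on the opposite strand.
Aars at chr8:111033704-111033763, plus strand: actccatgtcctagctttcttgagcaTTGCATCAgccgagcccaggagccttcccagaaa
Gars at chr6:55037941-55038000, plus strand: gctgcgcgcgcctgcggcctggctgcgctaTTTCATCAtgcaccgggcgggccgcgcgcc
Tars at chr15:11399659-11399718, minus strand: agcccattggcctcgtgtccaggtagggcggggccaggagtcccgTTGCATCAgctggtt
Iars at chr13:49682126-49682155, plus strand: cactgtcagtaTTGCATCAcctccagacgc
Yars at chr4:129189895-129189924, plus strand: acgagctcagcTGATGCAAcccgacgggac

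The match began 112 bases before the start site in Aars, 30 before it in Gars and 15 before it in Tars, while in Iars and Yars it began 7 and 3 bases after it. Aars held another match, beginning 9 bases after its start site. The 5 genes with the core had a median difference of 0.32 and the 8 cytosolic genes without it a median of 0.20. Within the ATF4 list, the genes with a promoter but without the core had a median of 0.27. The 5 other cytosolic genes with a promoter, all without the core, had a median of 0.03. These differences were not tested. Sars, with the largest cytosolic difference, had no match in this window, and Yars, with a match, differed by 0.04. Within the window the core was also found in 8 of the 22 ATF4-driven genes with a promoter. These were Chac1, Trib3, Asns, Nupr1, Pycr1, Atf3, Slc7a11 and Vldlr, of which Atf3, Slc7a11 and Vldlr were too low to be tested. Ddit3, Aldh18a1, Mthfd2 and Slc7a1, each higher in SCNT as given above, had no match. A match describes letters only, and no binding was measured.

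The mitochondrial synthetase genes were expressed at lower levels and did not move one way. Apart from Lars2, which is described last, their levels ran from 2.38 to 35.0 FPKM. Of the 16 genes, 11 had estimates above 0 and 5 below, with a median difference of 0.05. Ears2, Fars2, Iars2 and Yars2 were separated with SCNT higher and Rars2 with SCNT lower, which is 25.0% and 6.25% of the 16 against 18.3% and 15.1% of all tested genes. SCNT was higher within both library numbers in 7 of the 16 genes, against 33.8% of all tested genes. With FPKM rescaled without microRNA and small nucleolar RNA genes, Ears2 and Fars2 were separated with SCNT higher, where 14.3% of all tested genes were. Rars2 and Wars2 were then separated with SCNT lower, for which the share of all tested genes is not given. The mitochondrial median difference was 0.00085 in that scaling, where the median of all tested genes was -0.0343.

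**Figure D4:**
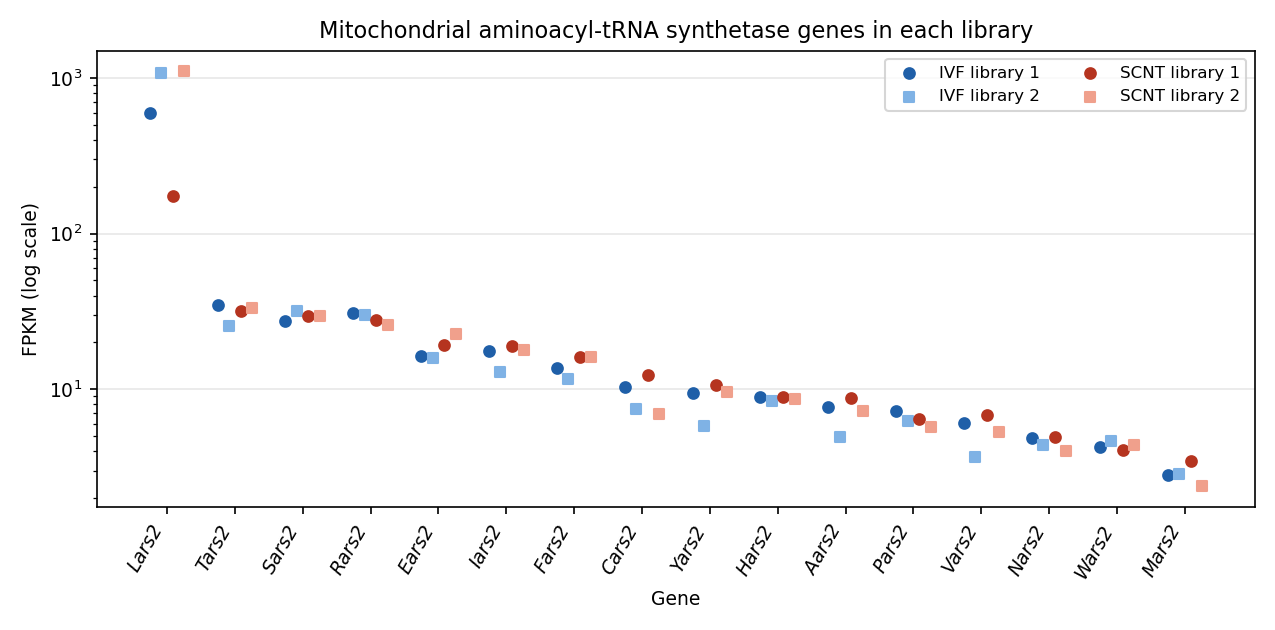
FPKM (log axis) of the 16 mitochondrial synthetase genes, ordered by mean level, with a point for each library (blue for IVF, red for SCNT; circles for libraries numbered 1, squares for libraries numbered 2). Lars2 lies far above the rest with its lowest value in SCNT library 1.

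Mitochondrial glutamyl-tRNA synthetase, Ears2, had the smallest p of the mitochondrial set. It was at 16.3 and 15.9 FPKM in IVF against 19.3 and 22.7 in SCNT, a ratio of 1.30 (difference 0.36 ± 0.18, 95% interval -0.09 to 0.81, limma adjusted p = 0.843). Mitochondrial phenylalanyl-tRNA synthetase, Fars2, was at 13.7 and 11.7 FPKM in IVF against 16.2 and 16.1 in SCNT (0.33 ± 0.17, limma adjusted p = 0.861). Tyrosyl-tRNA synthetase of mitochondria, Yars2, was at 9.45 and 5.80 FPKM in IVF against 10.6 and 9.66 in SCNT (0.40 ± 0.26, limma adjusted p = 0.901). In Yars2 the SCNT libraries were close to each other and IVF library 2 was low. Iars2 for isoleucine was at 17.6 and 12.9 FPKM in IVF against 18.9 and 17.9 in SCNT, also with IVF library 2 lowest.

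Aars2 for alanine and Vars2 for valine had the same shape but with overlap. Aars2 was at 7.72 and 4.91 FPKM in IVF against 8.79 and 7.27 in SCNT, and Vars2 at 6.11 and 3.68 FPKM in IVF against 6.83 and 5.28 in SCNT. Tars2 for threonine was at 35.0 and 25.4 FPKM in IVF against 31.7 and 33.2 in SCNT, inside the IVF range. Cars2 for cysteine was at 10.3 and 7.42 FPKM in IVF against 12.4 and 6.91 in SCNT, enclosing it.

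Rars2 for arginine was the separated gene with SCNT lower, at 30.8 and 30.05 FPKM in IVF against 27.7 and 25.7 in SCNT (-0.18 ± 0.17, limma adjusted p = 0.997). Pars2 for proline was at 7.25 and 6.28 FPKM in IVF against 6.42 and 5.67 in SCNT, with overlap. The other genes varied little between groups. Sars2 for serine was at 27.4 and 32.0 FPKM in IVF against 29.6 and 29.7 in SCNT, a difference of 0.00 with a 95% interval from -0.45 to 0.45. Its cytosolic counterpart Sars had the largest difference of the 36 genes with SCNT higher. Hars2 for histidine ran from 8.38 to 8.94 FPKM over all libraries, Nars2 for asparagine from 3.99 to 4.91 FPKM, Wars2 for tryptophan from 4.08 to 4.62 FPKM and Mars2 for methionine from 2.38 to 3.44 FPKM.

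**Figure D5:**
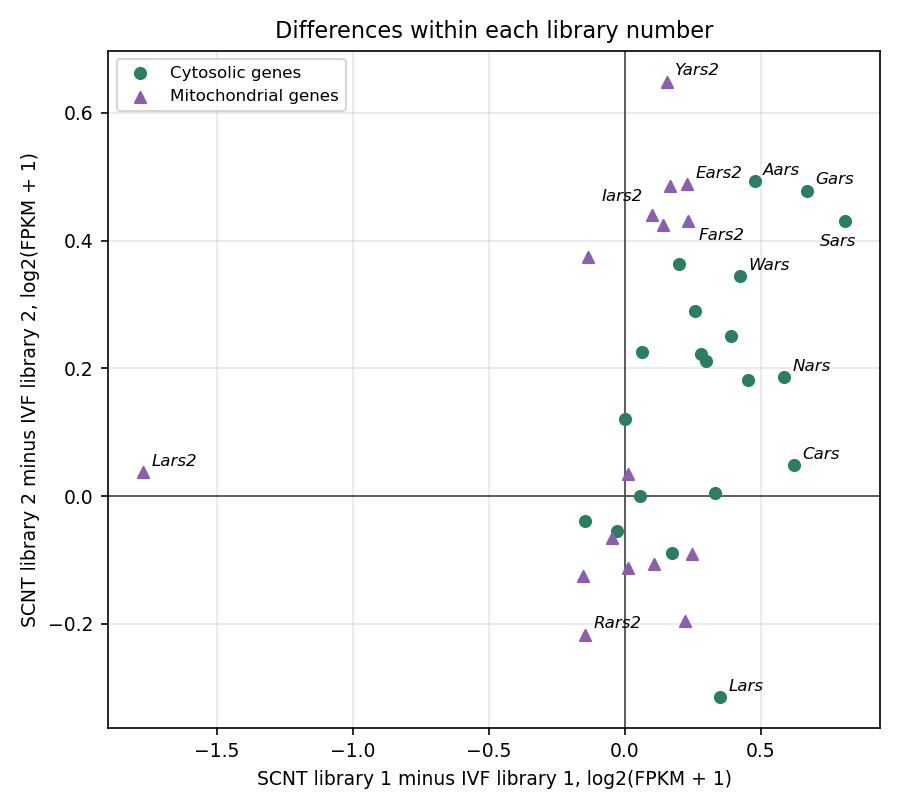
Difference of log2(FPKM + 1) between SCNT and IVF libraries numbered 1 (horizontal) and numbered 2 (vertical), with a circle for each cytosolic gene and a triangle for each mitochondrial gene. Aars, Gars, Sars and Wars lie high on both axes, Lars is below 0 on the vertical axis, and Lars2 is far to the left.

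The cytosolic transcript was more abundant than the mitochondrial transcript for the same amino acid in every library for 15 of the 16 pairs compared. Median ratios over the libraries ran from 1.77 for Iars over Iars2 and 1.97 for Tars over Tars2 to 20 for Mars over Mars2 and 27.7 for Nars over Nars2. Sars over Sars2 was 2.16 and 1.70 in IVF and 3.52 and 2.48 in SCNT, so both SCNT ratios were higher. The same held for Nars over Nars2, Rars over Rars2, Wars over Wars2 and Eprs over Pars2. Farsa over Fars2 alone went the other way, at 6.28 and 5.56 in IVF and 4.77 and 3.93 in SCNT. In the remaining pairs the ratios of the groups overlapped, and no share over all genes is given for such ratios.

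The exception was Lars2, the mitochondrial leucyl-tRNA synthetase, which was listed at 599 and 1074 FPKM in IVF against 175 and 1103 in SCNT. This put it above 98.0% of tested genes and above Lars in every library, with Lars at 0.0137 to 0.171 of its level. The 2 libraries numbered 2 were close to each other, and SCNT library 1 was lowest. The difference of -0.87 ± 0.89 (limma adjusted p = 0.9996) was smaller than the spread between replicates, and it was 0.46 without SCNT library 1. In GENCODE M21, 72 bases of the longest coding Lars2 transcript, after its stop codon, are 98.6% identical to the antisense RNA Gm15564, and 50 bases match AA474408 at 96.0%. Its FPKM is uncertain where reads of such stretches were shared, and their part in these values was not tested.

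All 7 listed scaffold, transamidation and formylation genes had estimates above 0, against 52.2% of all tested genes, with a median of 0.16. In 1 of 7, Gatc, the groups were separated with SCNT higher, a share no larger than the 18.3% of all tested genes. The scaffold genes had higher levels than most enzymes of the complex, with Aimp1 at 192 and 139.6 FPKM in IVF against 199 and 164 in SCNT, and Eef1e1 at 153 and 201 FPKM in IVF against 172 and 244 in SCNT. Aimp1 was higher in library 1 of each group and Eef1e1 in library 2. Of the amidotransferase that completes mitochondrial glutaminyl-tRNA after Ears2, the Qrsl1 subunit was at 19.4 and 19.9 FPKM in IVF against 19.5 and 26.8 in SCNT. The Pet112l subunit was at 18.9 and 12.8 FPKM in IVF against 17.8 and 17.1 in SCNT, and Gatc at 13.9 and 13.2 FPKM in IVF against 16.2 and 14.4 in SCNT. None had an unadjusted limma p under 0.05.

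Genes that mature, export and deliver charged tRNA had a median difference of 0.03. Of the 10 genes 6 had estimates above 0 and 1, Tsfm, was separated with SCNT higher, where 52.2% and 18.3% of all tested genes did so. Tsfm, which recycles the mitochondrial elongation factor Tufm, was at 76.3 and 71.5 FPKM in IVF against 88.4 and 79.1 in SCNT, while Tufm was at 135 and 126 FPKM in IVF against 128 and 109.4 in SCNT. Gfm1, the mitochondrial translocation factor, differed by 0.15, and Eef1g and Eef1d, subunits of the cytosolic exchange factor, by 0.16 and 0.04. In 9 of the 10 genes library 1 was above library 2 in both groups, as in most cytosolic synthetase genes.

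Of 6 other synthetase-like or proofreading genes, 5 had estimates above 0 and 4 were separated with SCNT higher, against 52.2% and 18.3% of all tested genes, with a median of 0.31. Pstk, the kinase that prepares selenocysteine tRNA, named after its values were seen, was at 29.2 and 32.3 FPKM in IVF against 41.5 and 51.0 in SCNT (0.57 ± 0.19, unadjusted p = 0.0304 and limma adjusted p = 0.595). The alanine proofreading gene Aarsd1, also named after its values were seen, was at 72.1 and 57.1 FPKM in IVF against 98.3 and 72.5 in SCNT.

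Some of these values can hold reads of neighbouring genes, since no source used here says whether strand was used. In GENCODE M21, exons of 13 of the 36 genes overlap exons of another gene on the opposite strand. Mars shares its end with Ddit3, which had the difference of 1.59 given above, and the part of Ddit3 in the Mars values was not tested. Of the opposite-strand partners of separated mitochondrial genes, Rab3gap2 at Iars2 differed by -0.08, Lyrm4 at Fars2 by 0.01 and Ubfd1 at Ears2 by -0.26, while Nrn1 at Fars2 and 2010103J01Rik at Iars2 were not among the tested genes. Aars overlaps Exosc6 on the same strand, and Exosc6 differed by 0.10. Iars shares 1656 bases at 96.0% identity with the pseudogene Gm4849, so its FPKM depends on how shared reads were divided.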

How the data were processed

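The authors deposited 1 value per gene symbol and library, taken to be FPKM computed with Cufflinks. No header names a unit, so this is inferred from the use of Cufflinks and the range of the values. The submitters' processing notes list mm9 together with Cufflinks 2.2.1, TopHat2 2.0.14 and Bowtie2 2.1.0. No source used here gives the annotation, filters, strand or scaling. Per the labels' protocols, cDNA of lysed embryos was amplified with a SMARTer kit, sheared and made into libraries with a NEBNext Ultra DNA kit. Because FPKM is scaled to the total, abundant genes that differ move every other gene.

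Samples were grouped by title. limma 3.58.1 in R 4.3.3 was run on log2(FPKM + 1) with a mean-variance trend and group as the only term, with Benjamini-Hochberg adjustment over all 11039 genes at a mean of at least 1 FPKM and a threshold of 0.05. The code was tested on simulated data. Among genes under 0.5 FPKM, ratios of SCNT library 1 to IVF library 1 gathered at 0.966 (11.4% of 3540 genes), so a fragment was worth nearly the same in both, while libraries numbered 2 gave no clear step (2.27% and 2.37%). Absolute depth and counting error are unknown.

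All 36 genes are named, with full statistics where the unadjusted p is under 0.05 or, failing 3 of a kind, for the 3 smallest p. From the other lists up to 5 genes with the smallest p are named, and further ones as familiar markers or after their values were seen. The genes, lists and motif were chosen with earlier results of these data known. Near-identical stretches (at least 95% identity over at least 50 bases) were found with blastn 2.17.0 among GENCODE M21 transcripts. Chromosomes come from RefSeq GRCm38.p6, which is not the build of the files, and coordinates are given for its promoters only. Alternatives were other pseudocounts, filters and scalings, a replicate block, and leaving out each library. A gene of the wider lists is not reported here.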

Additional observations from a re-analysis of the deposited data

How the results depend on the processing

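No synthetase gene passed over all genes in any setting, and the lowest limma adjusted p among them was 0.148, with the replicate block. The count of called genes over the whole table was 14. Of 249 single-gene differences recomputed with all 4 libraries, 241 kept their direction. The 8 others were near 0. Rescaling without microRNA and small nucleolar RNA genes gave -0.0347 for Lars, -0.0268 for Qars, -0.0129 for Yars, -0.0270 for Hars2, -0.0275 for Mars2 and -0.0526 for Sars2, and equal medians gave -0.000544 for Mars2 and -0.0127 for Sars2. The rescaling also left 3 cytosolic and 2 mitochondrial genes separated with SCNT higher, against 14.3% of all tested genes. It left 2 mitochondrial genes separated with SCNT lower, for which the share of all tested genes is not given. With it 0 synthetase genes had an unadjusted limma p under 0.05, against 3.37% of all tested genes with SCNT higher. The mitochondrial median was then 0.00085. The rescaling moved the median of all tested genes from 0.0131 to -0.0343. Equal medians gave 6 cytosolic and 5 mitochondrial genes separated with SCNT higher, against 17.2% of all tested genes. That setting also gave 2 mitochondrial genes separated with SCNT lower, for which the share of all tested genes is not given. A filter at 5 FPKM gave a mitochondrial median of 0.118 because fewer genes were tested.

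The replicate block gave 10 synthetase genes with an unadjusted p under 0.05 and SCNT higher, where 9.58% of all tested genes had that, and 20 genes called over all genes. Library numbers are only shared labels, since nothing says that they pair the samples. Deviations from the group means of same-numbered libraries correlated at 0.309 across all tested genes and at 0.721 across the 36 synthetase genes, and genes are not independent replicates.

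Leaving out each library in turn gave a cytosolic median of 0.0324 to 0.450 and a mitochondrial median of -0.00921 to 0.174 (-0.00565 to 0.289 without Lars2, added after seeing the data). Separated cytosolic genes numbered 6 to 16 with SCNT higher and 1 to 4 with SCNT lower, and mitochondrial genes 5 to 10 and 3 to 5. With 1 library left in a group, separation comes more easily, in 33.0% to 38.4% of all tested genes with SCNT higher. The share of all tested genes with SCNT lower is not given for these fits. The counts with SCNT lower therefore cannot be set against a background. Genes at an unadjusted p under 0.05 numbered 0 to 2 higher and 0 to 1 lower, and between 36 and 43 genes were called among all tested genes. The lone library is assumed to vary like the others, so no conclusion is drawn from the p-values of these fits. In these fits 30 of 144 single-gene values changed direction. The ranges of those genes were -0.0689 to 0.189 for Hars, -0.0350 to 0.677 for Iars, -0.132 to 0.419 for Kars, -0.449 to 0.485 for Lars, -0.325 to 0.380 for Qars, -0.0517 to 0.388 for Rars, -0.0247 to 0.659 for Tars, -0.0755 to 0.637 for Vars, -0.181 to 0.264 for Yars, -0.289 to 0.102 for Farsa and -0.164 to 0.0789 for Farsb. For mitochondrial genes they were -0.301 to 0.458 for Cars2, -0.0128 to 0.0584 for Hars2, -2.19 to 0.459 for Lars2, -0.185 to 0.211 for Mars2, -0.173 to 0.0702 for Nars2, -0.109 to 0.111 for Sars2, -0.104 to 0.341 for Tars2 and -0.0198 to 0.583 for Vars2. The cause of these reversals was not tested.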
